A study of Mus musculus with 14 samples.

Results

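Glycosaminoglycan sulfotransferases place sulfate groups on the sugar chains of proteoglycans, and 10 genes of this kind were examined in pancreatic islets: Ust, Ndst1, Ndst2, Ndst3, Ndst4, Hs2st1, Hs6st1, Hs6st2, Chst11 and Chst12. They were taken from the probe sets annotated with exactly 1 gene symbol, with the brightest probe set kept for each gene. By that rule 9 of the 10 were measured, out of 18820 genes, each by a single probe set, and Ndst1 was not analysed here. Ust and Ndst4 were chosen by their measured differences between groups in these same arrays, which gave the set its name. Their values are therefore given as a description, with no test, and the other 7 genes were tested.

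Islets came from mice of 4 groups, with 1 mouse and 1 array per sample: wild-type C57BL/6 mice (WT) after 5 weeks of high-fat diet (4 arrays), mice lacking both Toll-like receptors Tlr2 and Tlr4 on the same background (DKO) after 5 weeks (2 arrays), and WT and DKO mice after 7 months (4 arrays each). Every mouse ate the diet, which held 60% fat, from 6 weeks of age. No group on another diet was analysed here, and the later groups were older, so age and time on the diet cannot be told apart. The labels name no tissue to which the double knockout is limited. The series is about these receptors and the growth of beta cells in obesity, and the design compares genotypes at each time and times within each genotype.

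Heparan sulfate chains are first modified by the N-deacetylase/N-sulfotransferases (the Ndst genes), after which 2-O- and 6-O-sulfotransferases (Hs2st1, Hs6st1, Hs6st2) add further sulfates. Chondroitin sulfate takes its 4-O-sulfates from enzymes that include Chst11 and Chst12, and Ust, the uronyl 2-O-sulfotransferase, adds sulfate to the uronic acid of dermatan and chondroitin sulfate. The sulfation pattern of a chain sets which growth factors, chemokines and matrix proteins it binds. In islets heparan sulfate lies both in the basement membrane around the islet and inside beta cells.

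The promoter-side sequences of Ust and Hs2st1 are shown because these enzymes sulfate the same position of uronic acid on different chains and Ust stood apart between genotypes where Hs2st1 did not pass the test. Each is the 250 bases before the annotated gene start, from RefSeq on build GRCm38.p6, read 5′ to 3′ along the gene's own strand. Capitals mark a GC box, the letters GGGCGG or their reverse complement CCGCCC. The window of Ust lies at chr10:8518826-8519075 on the minus strand, and that of Hs2st1 at chr3:144570217-144570466 on the minus strand.
Ust: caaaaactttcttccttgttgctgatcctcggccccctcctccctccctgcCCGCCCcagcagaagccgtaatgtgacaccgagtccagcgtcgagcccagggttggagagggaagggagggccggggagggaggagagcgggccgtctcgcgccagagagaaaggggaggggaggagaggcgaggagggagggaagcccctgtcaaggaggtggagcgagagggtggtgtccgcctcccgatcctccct
Hs2st1: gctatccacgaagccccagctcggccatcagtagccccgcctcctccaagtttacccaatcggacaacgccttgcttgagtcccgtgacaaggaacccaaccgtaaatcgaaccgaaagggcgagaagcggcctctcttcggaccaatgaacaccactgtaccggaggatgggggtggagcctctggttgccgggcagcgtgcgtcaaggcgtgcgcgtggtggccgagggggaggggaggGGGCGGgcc
The Ust window held 1 GC box, in the reverse orientation, and that of Hs2st1 held 1 in the forward orientation. At least 1 GC box on either strand was found in 32.7% of 32851 windows of the same length. The letters TATAAA or TTTATA, found in 12.4% of windows, were in neither. CG pairs numbered 15 in the Ust window and 21 in that of Hs2st1, against a median of 6 over all windows, and the GC content was 66.4% and 64.4% against a median of 52.4%. Of the 9 measured genes, 8 had a window in the RefSeq table. These matches describe the letters only.

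Signals are log2 RMA values, on which a difference of 1 is a doubling, and array medians lay between 3.89 and 3.98. A group mean below every array median is near the dim end of the scale, where the size of a difference is not exact. Levels of different genes were not compared, because probe sets differ in how they bind. The number of arrays limits the precision. Pairs of arrays correlated at 0.978 to 0.995. Tlr2 checked the genotype labels: it was 6.22 to 6.62 in WT and 4.77 to 4.82 in DKO at 5 weeks, and 6.24 to 6.53 against 5.18 to 5.41 at 7 months. Tlr4 was below every array median in all 4 groups (means 2.86 to 3.30) and did not serve as a check. The sources used here do not say whether either probe set lies in a deleted part of its gene. The tissue label was checked by beta cell genes, and all 10 were above the array medians. Their summed signal, as log2, was 14.73 to 14.78 in WT and 14.59 to 14.68 in DKO at 5 weeks. At 7 months it was 14.80 to 14.84 in WT and 14.63 to 14.78 in DKO. The summed signal of 8 acinar enzyme genes, the markers of surrounding exocrine tissue, was 10.32 to 12.93 in WT and 12.98 to 13.32 in DKO at 5 weeks, and 9.01 to 13.04 in WT and 11.91 to 12.52 in DKO at 7 months, with 0 of the 8 called in each comparison. The median DKO minus WT difference of the 8 was 1.07 at 5 weeks and 1.06 at 7 months, so exocrine signal was not level between genotypes.

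Ust (probe set 10367734) was lower in DKO than in WT islets at both times. At 5 weeks its signals were 5.54, 5.40, 5.29 and 5.44 on the WT arrays and 3.90 and 3.86 on the DKO arrays. After 7 months they were 6.14, 5.62, 6.05 and 5.97 in WT and 3.19, 2.92, 2.59 and 3.20 in DKO. Every DKO array lay below every WT array, and the genotype groups stood furthest apart at 7 months. Group means were 5.42 ± 0.10 (SD, n = 4) in WT and 3.88 ± 0.03 (n = 2) in DKO at 5 weeks, and 5.94 ± 0.22 (n = 4) in WT and 2.97 ± 0.29 (n = 4) in DKO at 7 months. Both DKO means were below every array median, the 5-week one only just.

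The DKO minus WT difference of Ust was -1.54 ± 0.17 (SE) at 5 weeks, or 2.90-fold lower, and -2.97 ± 0.14 at 7 months, or 7.84-fold lower. Of the 18820 genes, 24 had a larger difference in size at 5 weeks and 2 at 7 months, although the dim DKO signals leave the sizes inexact. Over time Ust moved in opposite directions in the genotypes. WT arrays were higher at 7 months than at 5 weeks by 0.53 ± 0.14 (1.44-fold), and DKO arrays were lower by a log2 difference of -0.91 ± 0.17 (1.88-fold), with no overlap between times in either genotype. Larger changes over time were found for 531 genes in WT and 443 in DKO. The difference between these changes was -1.43 ± 0.21, and 36 genes had a larger one. Leaving out any 1 array kept the 7-month genotype difference between -3.08 and -2.84. The 5-week one lay between -1.58 and -1.48 over 11 other settings, among them the acinar signal as a covariate.

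Ndst4 (probe set 10495878), one of the N-deacetylase/N-sulfotransferases that start heparan sulfate modification, gave a different order of groups. At 5 weeks the signals were 5.86, 6.01, 6.08 and 6.26 in WT and 5.65 and 6.04 in DKO, and the genotypes overlapped. At 7 months they were 4.23, 5.30, 4.51 and 4.62 in WT and 2.95, 3.31, 2.85 and 2.72 in DKO, with each DKO array below each WT array. Both genotypes were lower at 7 months than at 5 weeks without overlap, and WT replicate 2 was the highest of its group at 7 months. The means were 6.05 ± 0.17 (SD, n = 4), 5.84 ± 0.27 (n = 2), 4.66 ± 0.45 (n = 4) and 2.96 ± 0.26 (n = 4) for WT and DKO at 5 weeks and WT and DKO at 7 months. The mean of DKO at 7 months alone fell below every array median.

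For Ndst4 the DKO minus WT difference was -0.21 ± 0.24 (SE) at 5 weeks, an interval of -0.71 to 0.29, and -1.71 ± 0.19 at 7 months, or 3.26-fold lower. The change from 5 weeks to 7 months was -1.39 ± 0.19 in WT (2.62-fold lower) and -2.89 ± 0.24 in DKO (7.40-fold lower). Of all genes, 5091 had a larger genotype difference at 5 weeks and 35 at 7 months, and 37 had a larger change over time in WT and 6 in DKO, where the dim 7-month mean leaves the size inexact. The difference between the genotypes' changes was -1.50 ± 0.30. Set beside Ust, the 5-week genotype difference was -1.54 for Ust and -0.21 for Ndst4, while over time in WT Ndst4 was lower and Ust higher. Both genes were picked for their differences, so an interval of either is not a test. No test of one gene against the other was made.

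**Figure D1:**
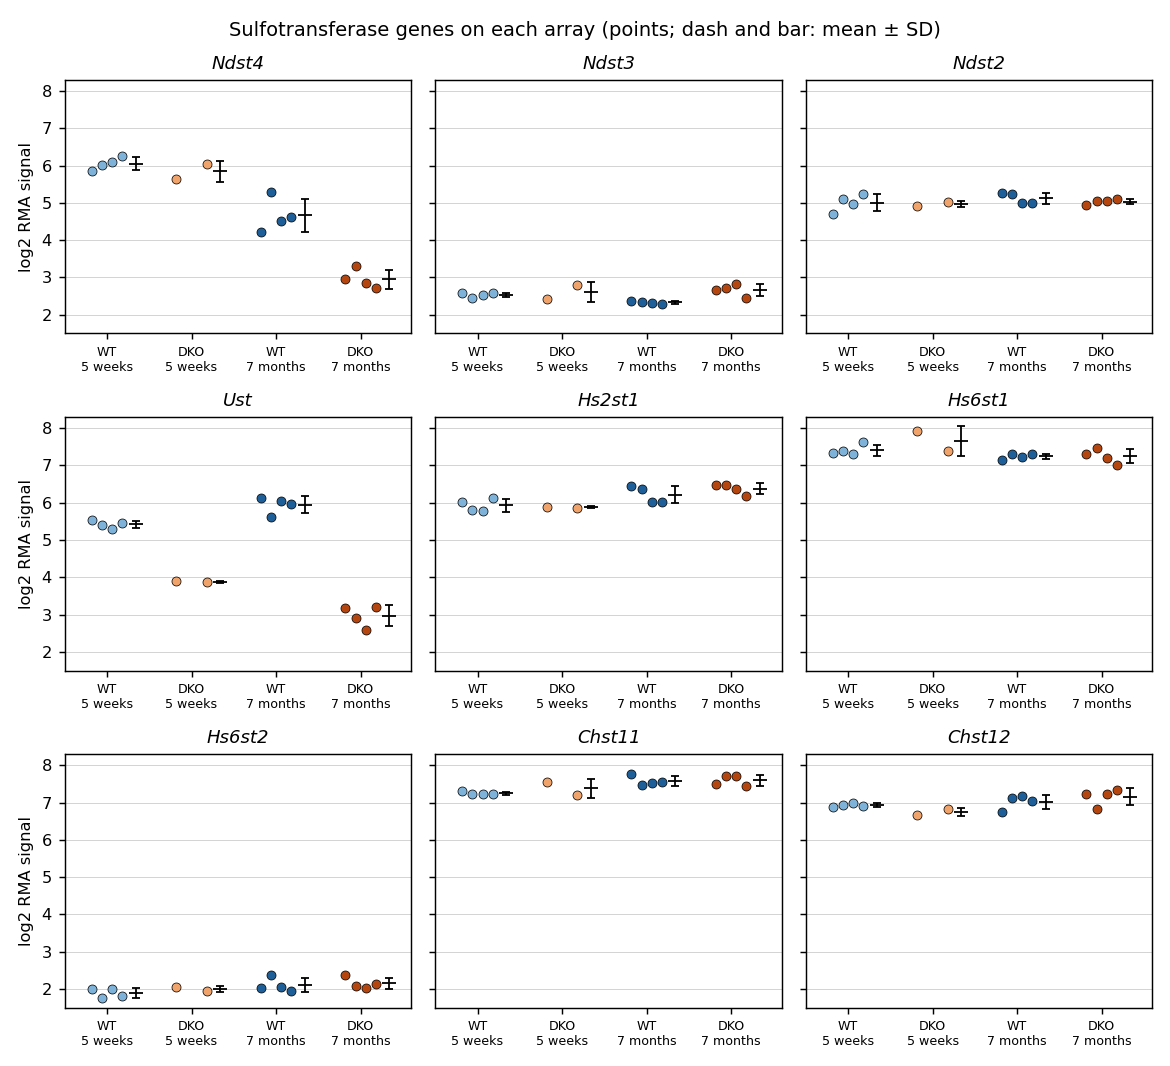
Log2 RMA signal of the 9 measured sulfotransferase genes on each of the 14 arrays, by genotype and time on the diet (points are arrays, dash and bar are the group mean ± SD). Ust is lower in DKO at both times and Ndst4 is lowest in DKO at 7 months, while the other panels stay close to level; heights are not comparable between panels.

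Genes of the rarer endocrine cells were also lower in DKO than in WT at 7 months, the comparison in which both Ust and Ndst4 were lower. At 7 months 2 delta cell genes out of 5, Rbp4 and Sst, were called lower in DKO against WT (Sst in limma, -0.88 ± 0.08, adjusted p = 2.35e-05, and Rbp4 -1.91 ± 0.14, adjusted p = 2.53e-06). All 3 genes of PP and epsilon cells fell in that comparison, where 4.71% of all genes were called, Pyy by 1.40 ± 0.12 (limma adjusted p = 6.27e-06). Of 4 measured alpha cell genes 3 were called lower, Irx2 the furthest at -1.22 ± 0.13 (limma adjusted p = 7.46e-05), and of 10 beta cell genes 0 were called. The summed beta cell signal was still lower on every DKO array than on every WT array, at 5 weeks as at 7 months. The summed delta cell signal, as log2, was 12.98 to 13.04 in WT and 12.90 to 12.98 in DKO at 5 weeks, then 12.59 to 12.83 in WT and 11.63 to 11.95 in DKO at 7 months. The summed PP and epsilon signal ran from 13.31 to 13.42, 13.37 to 13.50, 12.82 to 13.31 and 11.78 to 12.43 in the same order, and the alpha signal from 13.61 to 13.70, 13.36 to 13.49, 13.36 to 13.53 and 12.97 to 13.28. At 5 weeks 0 of 5 delta, 0 of 4 alpha and 0 of 3 PP and epsilon genes were called, where 0.994% of all genes were, and the alpha genes had a median difference of -0.35, with the summed alpha signal lower on both DKO arrays than on every WT array. Over time in WT, where Ndst4 was 2.62-fold lower, 2 of 4 alpha genes (Irx1 and Irx2), 1 of 5 delta genes (Rbp4) and 0 of 3 PP and epsilon genes were called lower. The PP and epsilon genes were still lower without a call: Ghrl by -1.28 ± 0.34 (limma adjusted p = 0.0695), Ppy by -0.27 ± 0.17 and Pyy by -0.23 ± 0.12. Over time in DKO 3 of 4 alpha, 3 of 5 delta and 3 of 3 PP and epsilon genes were called lower, and 1 delta gene was called higher. The share of all genes called was 2.37% over time in WT and 7.57% over time in DKO. The part of these cells in the values of Ust and Ndst4 was not tested. In whole islets fewer cells of a type and less RNA per cell cannot be told apart.

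The genes whose profiles over the 14 arrays lay closest to Ust and to Ndst4 were found by the root mean square difference between profiles, each centred on its own mean. Dock10, a guanine nucleotide exchange factor, was nearest to Ust at 0.38 log2 units, against a spread of 1.25 for Ust itself and a median of 1.27 over all genes. Next came Dpp10, a partner of potassium channels (0.49), Ppargc1a, a transcriptional coactivator of mitochondrial genes (0.53), Npas4, an activity-induced transcription factor (0.54), and Ndufs5, a subunit of respiratory complex I (0.55). Dock10 had means of 7.20 in WT and 5.51 in DKO at 5 weeks, and 7.35 and 5.16 at 7 months. Ppargc1a differed from Ust most plainly at 5 weeks, where its means were 6.23 in WT and 5.80 in DKO.

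Nearest to Ndst4 was Pdk4, a kinase that restrains pyruvate dehydrogenase, at 0.23 log2 units, against a spread of 1.28 for Ndst4 itself and a median of 1.30 over all genes. Rbp4, the retinol-binding protein of the delta cell list, followed at 0.26. Then came Peg10 (0.32), AW551984 (0.36) and Nnat (0.40), of which Peg10 and Nnat are imprinted genes. Pdk4 had means of 6.87 and 6.68 in WT and DKO at 5 weeks and 5.24 and 3.78 at 7 months, the same order of groups as Ndst4. These genes were found by their likeness to Ust or Ndst4, so the closeness is a description without a test.

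**Figure D2:**
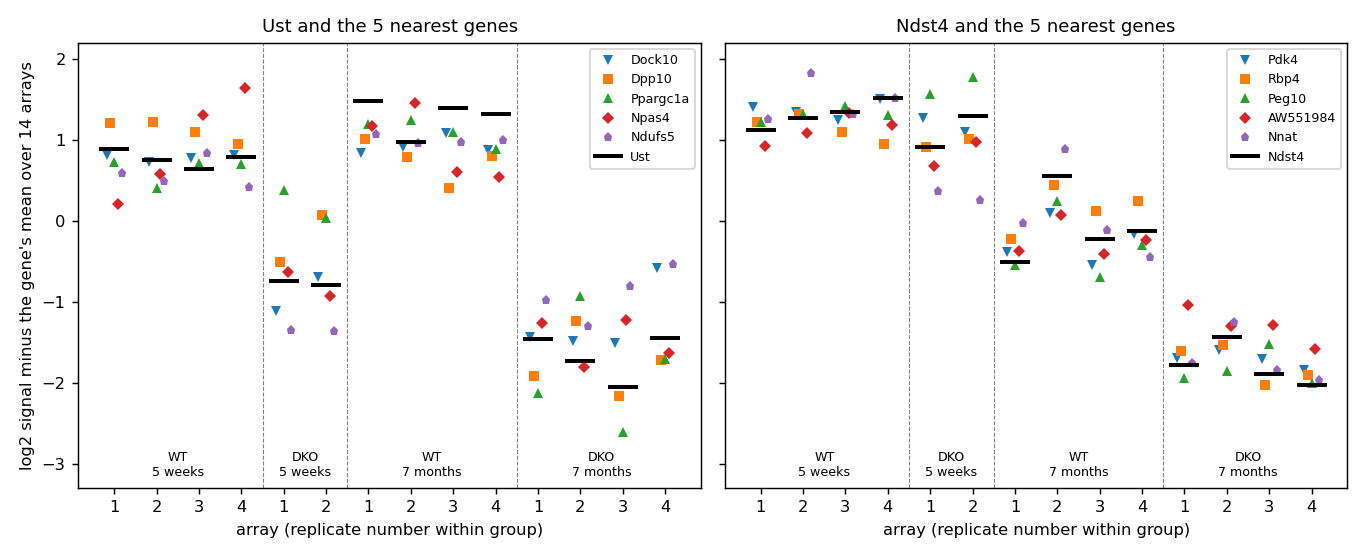
Log2 signal minus each gene's mean over the 14 arrays, for Ust and for Ndst4 (black dashes) and the 5 genes nearest to each (coloured symbols), with arrays in their groups. The genes near Ust are low in DKO at 7 months, and most are low there at 5 weeks too, except that both arrays of Ppargc1a and 1 of Dpp10 lie above the gene means, while those near Ndst4 are lowest in DKO at 7 months.

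None of the 7 tested sulfotransferases was called in a comparison, where a call means a Benjamini-Hochberg adjusted p under 0.05 in a limma fit over all genes. Over all 18820 genes the share called was 0.994% for genotype at 5 weeks, 4.71% for genotype at 7 months, 2.37% for time in WT, 7.57% for time in DKO and 0.0903% for the interaction. An unadjusted p under 0.05 was reached by 0, 1, 3, 3 and 0 of the 7 in limma, in that order, where 12.1%, 18.4%, 14.6%, 21.5% and 10.1% of all genes reached it. DKO minus WT differences of the 7 lay between -0.18 and 0.25 at 5 weeks and between -0.08 and 0.34 at 7 months, and no bound of a 95% interval went past -0.48 and 0.57, or -0.32 and 0.55. Changes over time lay between -0.20 and 0.33 in WT and between -0.41 and 0.50 in DKO, within interval bounds of -0.43 to 0.54 and -0.73 to 0.81. Their median difference was 0.08, 0.05, 0.11, 0.15 and -0.05 in the 5 comparisons, beside 0.01, 0.01, 0.03, 0.02 and 0.00 over all genes. A miss of the threshold does not show that the groups were alike, and the intervals give what size remains possible.

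**Figure D3:**
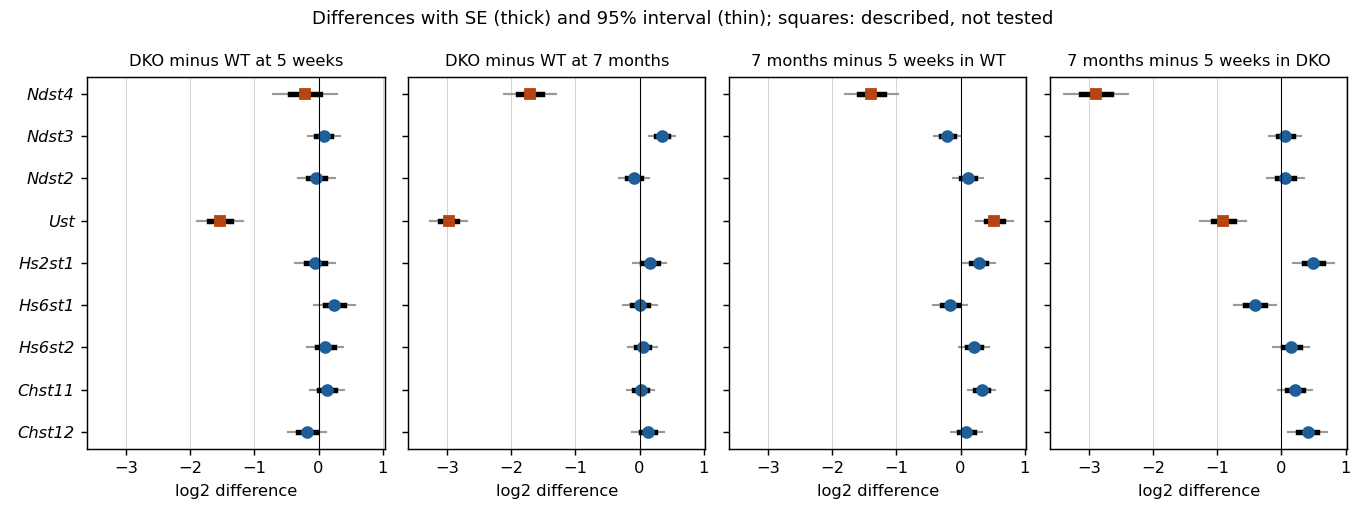
Log2 differences of the 9 measured genes in 4 comparisons, with the SE as a thick bar and the 95% interval as a thin line. Squares mark Ust and Ndst4, which were described and not tested; Ust reaches -2.97 at 7 months, and the 7 tested genes (circles) stay between -0.41 and 0.50.

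Among the N-sulfotransferases, Ndst3 came closest to a call in the genotype comparison. Its signals at 7 months were 2.37, 2.34, 2.32 and 2.28 in WT and 2.68, 2.72, 2.84 and 2.46 in DKO, and the groups did not overlap. At 5 weeks they were 2.57, 2.46, 2.53 and 2.58 in WT and 2.43 and 2.80 in DKO, which overlapped. The 7-month difference was 0.34 ± 0.10 (SE), or 1.27-fold, and did not pass (limma adjusted p = 0.0532). It passed in limma without either array of DKO at 5 weeks or without DKO replicate 4 at 7 months, at adjusted p down to 0.0225 over its alternatives and up to 0.160. Every Ndst3 mean was below every array median. Ndst2, whose product is needed for heparin in mast cells, ranged from 4.70 to 5.26 over the 14 arrays, overlapped in all comparisons and differed by -0.08 to 0.11.

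Hs2st1 adds 2-O-sulfate to the iduronic acid of heparan sulfate, where Ust acts on dermatan and chondroitin sulfate. It measured 6.03, 5.79, 5.78 and 6.13 in WT and 5.89 and 5.86 in DKO at 5 weeks. At 7 months it measured 6.44, 6.38, 6.01 and 6.02 in WT and 6.47, 6.48, 6.37 and 6.17 in DKO. The DKO times did not overlap, and the WT times did. Its change over time was 0.50 ± 0.15 (SE), or 1.41-fold, in DKO (limma adjusted p = 0.0529) and 0.28 ± 0.12 in WT (limma adjusted p = 0.286), and the difference between genotypes at 7 months was 0.16 ± 0.12 (limma adjusted p = 0.525). The DKO change passed without WT replicate 1 or DKO replicate 4 at 7 months, and under 5 of 11 other settings, where the limma adjusted p went from 0.0288 to 0.230 over all alternatives. At 7 months the interval of the genotype difference was -0.09 to 0.42 for Hs2st1. Ust, picked for its differences, was not tested against it.

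The 6-O-sulfotransferases act on the glucosamine of heparan sulfate. Hs6st1 was 7.33, 7.37, 7.30 and 7.63 in WT and 7.93 and 7.38 in DKO at 5 weeks, and the DKO pair differed by more than the whole WT group. At 7 months it was 7.15, 7.29, 7.24 and 7.30 in WT and 7.31, 7.46, 7.20 and 7.01 in DKO. Its change over time in DKO was -0.41 ± 0.15 (SE; limma adjusted p = 0.124), which passed without DKO replicate 2 at 5 weeks (limma adjusted p = 0.0256) and shrank to -0.13 without DKO replicate 1. Hs6st2 stayed between 1.76 and 2.39, below every array median in all group means, so little can be read from it.

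Chst11 and Chst12 put 4-O-sulfate on chondroitin. Chst11 was 7.31, 7.22, 7.23 and 7.22 in WT and 7.56 and 7.19 in DKO at 5 weeks, and 7.76, 7.46, 7.53 and 7.54 in WT and 7.49, 7.72, 7.71 and 7.45 in DKO at 7 months. The WT times did not overlap, with a change of 0.33 ± 0.10 (SE) that did not pass (limma adjusted p = 0.118). Chst12 was 6.89, 6.93, 6.99 and 6.91 in WT and 6.68 and 6.82 in DKO at 5 weeks, and 6.75, 7.12, 7.19 and 7.03 in WT and 7.23, 6.83, 7.23 and 7.34 in DKO at 7 months. Its change over time in DKO was 0.41 ± 0.14 without overlap (limma adjusted p = 0.10), and it passed without DKO replicate 2 at 7 months (limma adjusted p = 0.0142). At 7 months the genotype difference was 0.02 ± 0.10 for Chst11 and 0.13 ± 0.12 for Chst12, with the genotypes overlapping for both.

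The other 19 measured sulfotransferases of heparan, chondroitin and keratan sulfate were not called in any of the 5 limma comparisons, where 2, 1, 1, 2 and 0 of them had an unadjusted p under 0.05. Over all genes 0.994%, 4.71%, 2.37%, 7.57% and 0.0903% were called in the same order. An unadjusted p under 0.05 in limma was reached by 12.1%, 18.4%, 14.6%, 21.5% and 10.1% of all genes. Differences of the 19 lay between -0.38 and 0.42 for genotype at 5 weeks, -0.28 and 0.37 at 7 months, -0.26 and 0.40 for time in WT and -0.41 and 0.39 for time in DKO. Between genotypes all of them lay nearer to 0 than Ust at both times and than Ndst4 at 7 months. Ust and Ndst4 were picked for their large differences, so this contrast follows in part from that choice and was not tested.

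The wider pathway was read from 17 lists by role, which hold 105 genes besides the sulfotransferases under study, 97 of them measured. In the limma fit 2 of the 97 were called for genotype at 5 weeks (2.06%, against 0.994% of all genes), 9 at 7 months (9.28% against 4.71%), 3 for time in WT (3.09% against 2.37%) and 10 for time in DKO (10.3% against 7.57%). The lists were chosen with earlier results of these data known, so these shares are a description and do not test the pathway. For the interaction 0 were called, against 0.0903% of all genes, and 14 of the 97 had an unadjusted p under 0.05 in limma, as did 10.1% of all genes. Of the called genes 0 rose and 2 fell, 6 rose and 3 fell, 2 rose and 1 fell, and 6 rose and 4 fell, in that order. The median differences of all 97 measured pathway genes, called or not, were -0.02, 0.02, 0.03 and 0.07, beside 0.01, 0.01, 0.03 and 0.02 over all genes. The 24 calls fell on 19 genes, and 6 of the calls passed with any 1 array left out and under each alternative that gave them a value. Of those 6, Col18a1 had no value with dim genes left out.

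Sulfate donor genes supply PAPS, from which every sulfotransferase takes its sulfate. Bpnt1, a nucleotidase that clears the by-product left when PAPS has given up its sulfate, was called lower in DKO at both times. It was 9.01, 8.93, 9.01 and 8.89 in WT and 8.32 and 8.23 in DKO at 5 weeks, and 9.26, 9.26, 9.03 and 9.14 in WT and 8.41, 8.59, 8.27 and 8.12 in DKO at 7 months. No DKO array reached a WT array. The fall of Bpnt1 was 0.82 ± 0.10 (SE) at 7 months (limma adjusted p = 0.000212) and 0.68 ± 0.12 at 5 weeks (limma adjusted p = 0.0142). The 7-month call passed under every alternative, and the 5-week call did not pass without either DKO array (limma adjusted p up to 0.0939). Of the other 7 measured donor genes, Slc35b3, a PAPS transporter of the Golgi, rose over time in DKO (0.39 ± 0.11, limma adjusted p = 0.0402), and Slc13a4, a sulfate transporter, fell (-0.59 ± 0.16, limma adjusted p = 0.0373). Slc35b3 was lost in 10 of 14 fits with an array left out and Slc13a4 in 5 of 14, among them both DKO arrays at 5 weeks in each case, and Slc13a4 was below every array median in all groups.

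Dse, the epimerase that makes the iduronic acid of dermatan sulfate, on which Ust acts, rose over time in both genotypes. Its signals were 4.90, 4.91, 5.20 and 5.28 in WT and 5.16 and 5.16 in DKO at 5 weeks. At 7 months they were 6.03, 6.05, 5.79 and 5.88 in WT and 6.21, 5.97, 6.28 and 6.13 in DKO, and the times did not overlap in either genotype. It rose by 0.87 ± 0.11 (SE) in WT (limma adjusted p = 0.000471) and by 0.99 ± 0.13 in DKO (limma adjusted p = 0.000441), and neither call was lost under an alternative. Between genotypes Dse differed by 0.21 ± 0.11 at 7 months (limma adjusted p = 0.312). The other 2 epimerases, Glce and Dsel, were not called. Pxylp1, a phosphatase acting on the xylose of the linker to the core protein, rose over time in WT (0.56 ± 0.10, limma adjusted p = 0.00698), from 6.92 to 7.24 on the 5-week arrays to 7.50 to 7.71 at 7 months. It was the only 1 of 7 linker genes called in these comparisons.

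None of 5 heparan and 5 chondroitin chain polymerases was called. Among the 7 genes of UDP-sugar supply, Gfpt1, which feeds the hexosamine pathway, and Slc35a3, a Golgi carrier of UDP-N-acetylglucosamine, rose over time in DKO, by 0.50 ± 0.14 (limma adjusted p = 0.0458) and 0.51 ± 0.14 (limma adjusted p = 0.0433). Gfpt1 was lost in 13 and Slc35a3 in 9 of 14 fits with an array left out.

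Hpse, the heparanase that cuts heparan sulfate chains, fell over time in DKO. It was 5.51 and 4.34 in DKO at 5 weeks and 2.72, 3.44, 2.81 and 3.54 at 7 months, beside 4.47, 4.03, 4.26 and 4.48 and then 4.06, 4.28, 3.96 and 3.62 in WT. The fall was 1.80 ± 0.29 (SE; limma adjusted p = 0.00197), and without DKO replicate 1 at 5 weeks, the highest array, it was -1.21 and did not pass (limma adjusted p = 0.0606). Its mean in DKO at 7 months was below every array median, as was that of Ptprz1. Sulf1, a sulfatase that removes 6-O-sulfate from heparan sulfate at the cell surface, was 0.34 ± 0.09 higher in DKO at 7 months (limma adjusted p = 0.0498). That call was lost in 13 of 14 fits with an array left out, and Sulf1 was below every array median in all groups. Of 9 lysosomal genes, Gusb, the lysosomal beta-glucuronidase, rose over time in DKO (0.46 ± 0.10, limma adjusted p = 0.0148), a call lost without either DKO array at 5 weeks (limma adjusted p up to 0.142). Neither of 2 measured hyaluronan synthases was called.

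**Figure D4:**
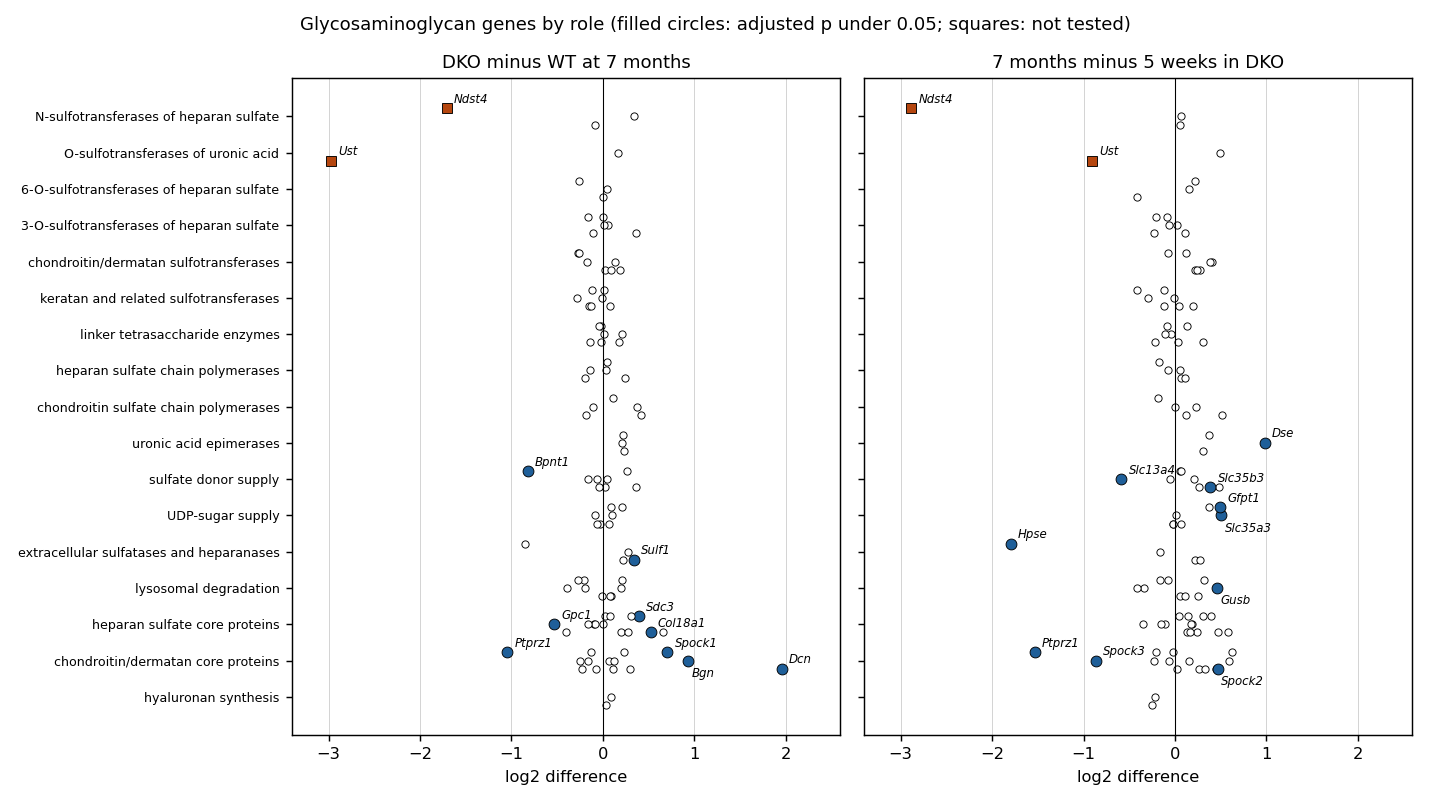
Log2 differences of glycosaminoglycan genes by role, for genotype at 7 months (left) and for time in DKO (right); each symbol is a gene, filled circles passed at an adjusted p under 0.05, and squares mark Ust and Ndst4, which were not tested. No sulfotransferase circle is filled, and the filled circles lie among donor, sugar supply, epimerase, degradation and core protein genes.

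Core proteins carry the chains that these enzymes sulfate. Of 14 heparan sulfate core proteins 3 were called at 7 months between genotypes, where 4.71% of all genes were. Col18a1, the collagen XVIII of basement membranes, was 3.08 to 3.45 in WT and 3.72 to 3.92 in DKO and rose by 0.52 ± 0.09 (SE; limma adjusted p = 0.00331), with all its means below every array median. Sdc3, a syndecan of the cell surface, rose by 0.39 ± 0.09 (limma adjusted p = 0.0178), and Gpc1, a lipid-anchored glypican, fell by 0.53 ± 0.13 (limma adjusted p = 0.0338). Sdc3 did not pass without WT replicate 1 or 4 or DKO replicate 4 at 7 months, with only the arrays compared, or with the acinar signal as a covariate (limma adjusted p up to 0.0656). Gpc1 did not pass without WT replicate 1, 2 or 4 or DKO replicate 1 or 3 at 7 months, or in those same other fits (limma adjusted p up to 0.101).

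Chondroitin and dermatan sulfate core proteins held 4 called genes of 14 at 7 months between genotypes. Dcn, decorin, which binds collagen fibrils, was 5.74, 6.46, 5.92 and 4.79 in WT and 7.07, 7.66, 7.86 and 8.17 in DKO. It rose by 1.96 ± 0.30 (SE; limma adjusted p = 0.00162) between genotypes and fell by 1.38 ± 0.30 over time in WT (limma adjusted p = 0.0253), where it had been 6.86 to 7.51 at 5 weeks. The WT fall did not pass without WT replicate 1 or 4 at 5 weeks or without WT replicate 1, 3 or 4 at 7 months (limma adjusted p up to 0.0838). Bgn, biglycan, rose by 0.94 ± 0.22 (limma adjusted p = 0.0236), and it was lost without WT replicate 1, 3 or 4 at 7 months, with the acinar covariate, and in a fit to the 7-month arrays alone (limma adjusted p up to 0.0766). Between genotypes at 7 months, 6 of 10 stellate cell and fibroblast genes rose as well, Col1a1 by 0.97 ± 0.18 (limma adjusted p = 0.00691). The summed list signal, as log2, was 9.54 to 9.64 in WT and 9.79 to 10.26 in DKO. Of 7 macrophage genes 4 rose there too, with summed signals of 7.60 to 7.71 and 7.90 to 8.75. Of all genes 4.71% were called in that comparison. Over time in WT, where Dcn fell, 1 of the 10 fibroblast genes was called higher (Rgs5) and 1 lower (Pdgfra, -0.53 ± 0.13, limma adjusted p = 0.0490). The median change of the 10 was -0.33, beside 0.03 over all genes, although their summed signal had been 9.27 to 9.55 at 5 weeks. Over time in DKO 3 of the 10 rose, while Dcn, Bgn and Col18a1 were not called. The part of these cells in the results was not tested.

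Ptprz1, a receptor phosphatase carrying chondroitin sulfate, was 4.21, 4.47, 4.19 and 4.05 in WT and 3.37, 3.24, 3.68 and 2.45 in DKO at 7 months, after 4.21 to 4.91 in WT and 4.33 and 5.10 in DKO at 5 weeks. It fell by 1.04 ± 0.23 (SE) between genotypes at 7 months (limma adjusted p = 0.0186), lost without WT replicate 2 at 7 months (0.0635), and by 1.53 ± 0.29 over time in DKO (limma adjusted p = 0.00456), lost without DKO replicate 2 at 5 weeks (0.0688). Of the testicans, secreted proteoglycans, Spock1 rose between genotypes at 7 months (0.71 ± 0.17, limma adjusted p = 0.0273) with overlapping groups, and it was lost in 5 of 14 fits with an array left out: WT replicate 1 or 2, or DKO replicate 1, 3 or 4, at 7 months. Spock2 was 9.80 to 9.90 in WT and 9.24 and 9.40 in DKO at 5 weeks. It fell by 0.54 ± 0.09 there (limma adjusted p = 0.00741) and rose over time in DKO by 0.47 ± 0.09 (limma adjusted p = 0.00425), and both calls were lost without DKO replicate 1 at 5 weeks (0.132 and 0.0930). Spock3 fell over time in DKO by 0.86 ± 0.20 (limma adjusted p = 0.0189), lost without DKO replicate 2 at 5 weeks (0.237), with all means below every array median.

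**Figure D5:**
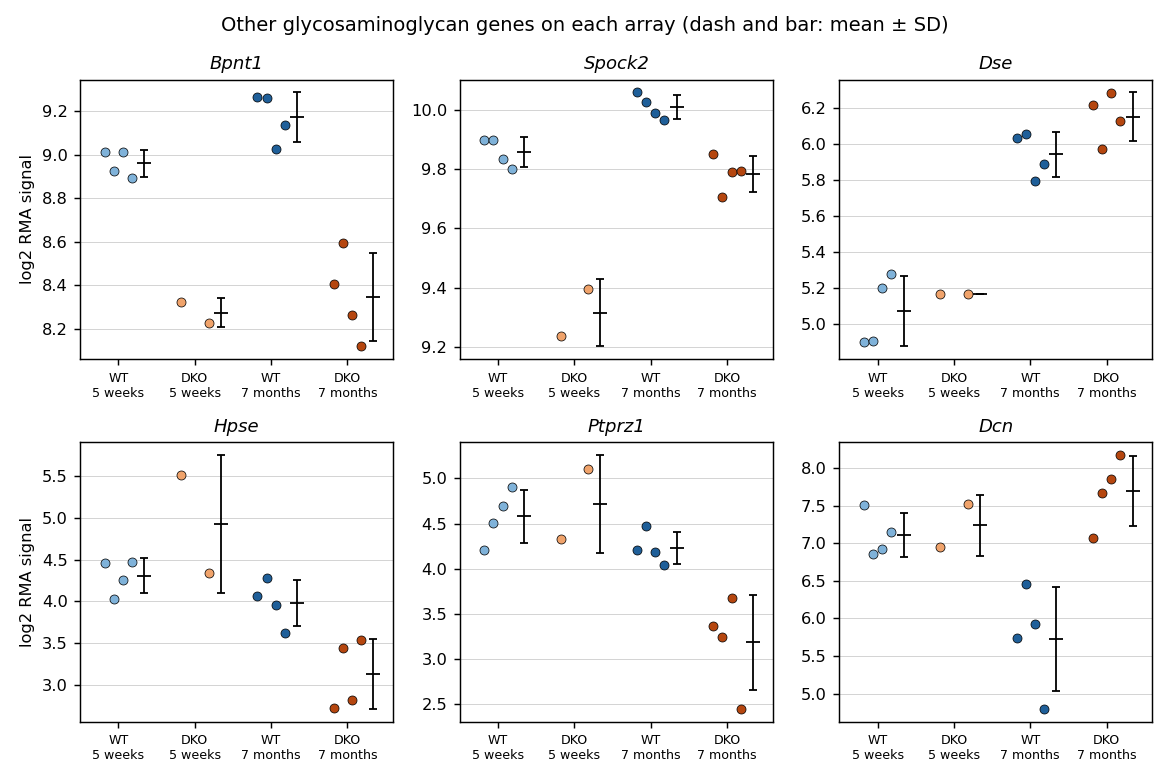
Log2 RMA signal of 6 other glycosaminoglycan genes on each array, by group (points are arrays, dash and bar are the group mean ± SD; each panel has its own axis). Bpnt1 is lower in DKO at both times, Dse is higher at 7 months in both genotypes, Spock2 is lowest in DKO at 5 weeks, Hpse and Ptprz1 are lowest in DKO at 7 months, and Dcn is lowest in WT at 7 months.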

How the data were processed

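RNA of islets from 14 mice was measured on a whole-transcript array, from 100 ng of total RNA per sample, per the labels. The deposited values are log2 signals made by the authors with RMA, per the submitters' processing notes, with a version the sources used here do not give. RMA already evens out arrays, so a shift shared by most genes would not show. Of 35556 probe sets 21218 had 1 gene symbol, 1881 several and 12457 none. The brightest probe set per gene was kept (1386 genes had several), which gave 18820 genes, 18790 of them matched to RefSeq by Entrez identifier.

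The limma 3.58.1 fit (R 4.3.3) used every array and a mean for each group, with Benjamini-Hochberg adjustment over all genes in each of 5 comparisons and a threshold of 0.05. Intervals are 95% intervals of the fit. The fit was tested on simulated data. Each p-value sets a difference against the spread between mice within groups. That spread was estimated over all 4 groups and drawn toward a value shared by all genes. The members, the 17 pathway and 13 marker lists were chosen with earlier results of these data known. Named genes are all members, up to 3 called genes per pathway list and comparison, and the 5 nearest genes to Ust and to Ndst4; Spock1, Glce and Dsel were added after their values were seen. Alternatives were only the arrays compared, a trended robust prior, dim genes left out, probe sets averaged, repeated quantile normalization, median centring, all probe sets, a replicate block, the number 5 or 7 in the descriptions as a block, array weights, an acinar score as covariate, and each array left out. Tables and figures used Python 3.11.15, pandas 2.3.3 and matplotlib 3.10.9.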

Additional observations from a re-analysis of the deposited data

Results flagged for a closer look

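Ust changed over time in opposite directions in the genotypes, every WT array being higher at 7 months and every DKO array lower than those at 5 weeks. The difference between the changes was -1.43 on the log2 scale and was not tested, because Ust was picked for its differences. Both DKO means (3.88 at 5 weeks and 2.97 at 7 months) were below every array median, so the size of the DKO change is inexact.

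Of 84 groups of 4 arrays checked, 4 held an array far from the others, and chance alone flags about 1 in 20. Bgn was 9.72 on DKO replicate 4 at 7 months, where the others were 8.52 to 8.70. Gfpt1 was 10.40 on WT replicate 2 at 7 months, where the others were all 10.57. Spock1 was 7.90 on DKO replicate 2 at 7 months, where the others were 8.62 to 8.76. Spock3 was 3.72 on WT replicate 2 at 7 months, where the others were 3.07 to 3.17.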

How the results depend on the processing

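Over the 35 tested pairs of gene and comparison, 858 alternative fits gave 14 calls and 27 differences of the other sign, none of the latter called in either fit. The number of tested sulfotransferases called at 7 months between genotypes went from 0 to 1, Ndst3, with arrays centred on their median and with array weights, and ranged from 0 to 1 with an array left out. Over time in DKO it went from 0 to 1, Hs2st1, with a trended robust prior, with dim genes left out, with median centring, with the replicate block and with an acinar covariate, and ranged from 0 to 1 with an array left out. It stayed at 0 under every alternative run in the other comparisons. No pairing of the mice by replicate number was seen: over 18 pairs with the same number the deviations correlated at -0.16 to 0.16, and an array correlated best with its own number in 6 of 24 checks. With so few arrays per group these checks cannot exclude a pairing. Under the block Gpc1 and Sulf1 at 7 months, Dcn over time in WT, and Gfpt1 and Slc35b3 over time in DKO did not pass.

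Pathway calls at 5 weeks, 2 in the report, were 1 with only the arrays compared, 4 with dim genes left out and 0 to 3 with an array left out (0 without DKO replicate 1 and 1 without DKO replicate 2). At 7 months the 9 calls became 4 with only the arrays compared and 4 to 14 with an array left out (4 without WT replicate 1, 5 without WT replicate 2 or 4, 14 without DKO replicate 2). Over time in WT the 3 became 5 with array weights and 2 to 3 with an array left out. Over time in DKO the 10 became 2 with only the arrays compared, 6 with the acinar score, and 3 to 13 with an array left out (3 without either 5-week DKO array, 6 without DKO replicate 4 at 7 months). For the interaction the 0 became at most 1, without DKO replicate 2 at 5 weeks or at 7 months. None of the 24 pathway calls changed sign. The cause of these moves was not tested. With only the arrays compared the interaction could not be fitted, and with dim genes left out Ndst3 and Hs6st2 had no value, nor had the calls of Col18a1, Gpc1, Ptprz1, Sulf1, Slc13a4 and Spock3. With only the arrays compared the calls lost were Spock2 at 5 weeks, Bgn, Gpc1, Sdc3, Spock1 and Sulf1 at 7 months, and all over time in DKO but Dse and Hpse. With the acinar covariate they were Bgn, Gpc1, Sdc3 and Sulf1 at 7 months and Gfpt1, Slc13a4, Slc35a3 and Slc35b3 over time in DKO. Ust kept its signs under every alternative, as did Ndst4. With 2 DKO arrays at 5 weeks, a fit without one of them takes the spread from the other groups. Signals near the dim end limit the sizes for Ust and Ndst4 in DKO and the values of Ndst3 and Hs6st2.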
